A study of Arabidopsis thaliana with 12 samples.

Results

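Class III peroxidases are the secreted plant peroxidases, a large family of haem enzymes that pass through the secretory pathway into the cell wall or the vacuole. They use hydrogen peroxide to oxidise phenolic substrates, which couples lignin monomers and cross-links wall proteins and thereby stiffens the wall, and in another reaction cycle they generate reactive oxygen species that can loosen it. In flowers and other growing organs their balance is tied to where cells stop expanding and to how walls of vessels, anthers and seed coats mature. The results concern 60 Arabidopsis loci of this family, taken from a list of locus identifiers. A named probe was present for 54 of them, and 34 had enough values to be tested, among 18125 features tested on the whole array.

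The tissue was Arabidopsis inflorescence carrying flower buds of stages 1 to 9, from plants of the Landsberg erecta background. Every plant, mock controls included, carried 35S:HAN-GR, a fusion of the GATA factor HANABA TARANU (HAN) to the glucocorticoid receptor, which stays outside the nucleus until dexamethasone (Dex) is given. The 35S promoter is active in most plant tissues, so the fusion was not restricted to the cells in which HAN is normally found. The arrays form a group of 4 per time, called biological replicates by the labels: plants given 10 µM Dex against mock-treated plants at 4 h, the same at 12 h and the same at 72 h. On each of the 12 arrays both RNAs of a time point were hybridised together, with the dyes exchanged on 2 of the 4 by the labels. Plants lacking the fusion but given Dex were not analysed here, so an effect of the hormone itself and one of HAN-GR cannot be told apart.

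Each value was the log2 ratio of the channels of one array, as deposited, and is given after subtracting that array's median over the tested features. The deposited values end at 6.64 and -6.64, which are log2 of 100 and of 0.01, and between 7.91% and 14.8% of the gene probes of an array sat at such a limit. Those values were treated as missing. No label or header gives the direction of the ratio. It is read here as Dex over mock because the labels call the mock RNA the control, and if it ran the other way all rises and falls would exchange places. Arrays with opposite labelled dyes correlated above 0 across the tested features (r from 0.06 to 0.64). Away from the limits the ratio thus followed the treatment more than the dye, which does not tell Dex over mock from mock over Dex. Pairs of one labelled dye had a higher r at 12 h (0.71 and 0.73) than opposite pairs (0.39 to 0.49), so a dye part remained. At 72 h these were 0.51 and 0.32, against 0.06 to 0.41. With the limit values kept, r between arrays of opposite labelled dyes was from -0.72 to -0.67 at 12 h and from -0.75 to -0.49 at 72 h. At 4 h the sign of the limit values put replicates 1 and 4 together and 2 and 3 together, whereas the labels give Dex Cy5 to replicates 1 and 2. With limit values kept, the pairs 1 and 4 and 2 and 3, of opposite labelled dyes, both had r = 0.87, and the pairs of one labelled dye had r = -0.81 and -0.82. The labelled dyes of 2 arrays at 4 h may therefore be exchanged. With limit values missing, the highest r of opposite pairs, 0.64 and 0.55, came from those pairs, and the other 4 h pairs had r from 0.18 to 0.29. No signal level can be recovered from ratios, the number of arrays limits the precision, and neither the tissue's markers nor the probe of HAN could be used as a check. These are bulk samples, in which fewer cells of a type and less RNA per cell cannot be told apart.

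At 4 h, 7 of the 34 peroxidase genes passed the test (limma, Benjamini-Hochberg adjusted p under 0.05), 2 higher and 5 lower in Dex-treated plants. That is 20.6% of them, against 11.1% of all tested features, of which 4.21% were higher and 6.87% lower. At 12 h, 15 had passed, 6 higher and 9 lower (44.1%, against 15.8% of all features, 5.34% higher and 10.5% lower). At 72 h, 23 had passed, 14 higher and 9 lower (67.6%, against 20.7% of all features, 9.88% higher and 10.9% lower). The median log2 ratio of the 34 genes stayed near 0, at -0.09, -0.06 and 0.17 in order of time, beside 0.00, 0.01 and 0.00 over all features. Their median size without the sign went from 0.24 to 0.39 and 0.76, while that of all features went from 0.14 to 0.17 and 0.24. Scatter alone also raises such a size. The median SD of the 34 genes was 0.294, 0.206 and 0.385, beside 0.208, 0.188 and 0.344 over all features. By these counts, genes of the family passed in both directions at every time. The loci were chosen with earlier results of these data known, so shares above those of all features may follow from that choice.

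**Figure D1:**
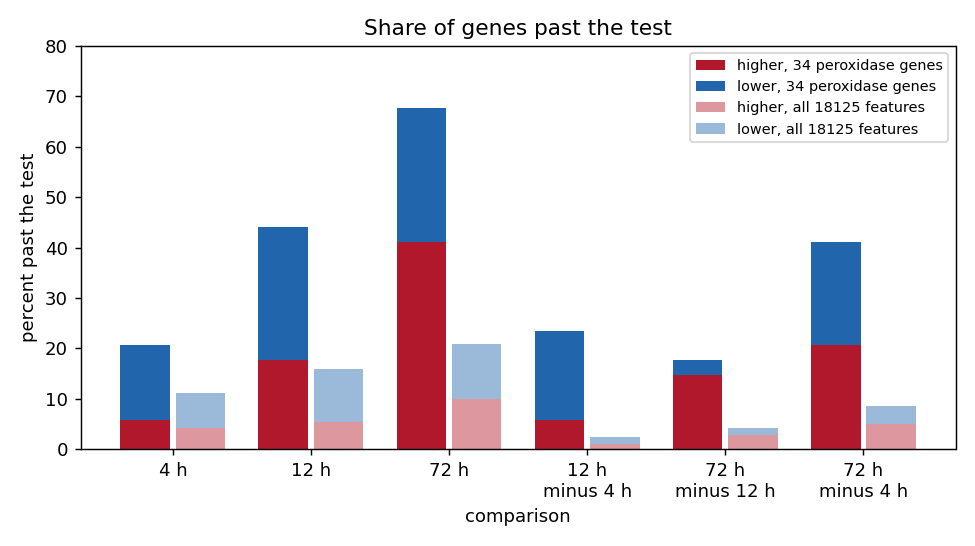
Percent of features past the test (limma adjusted p under 0.05) in each comparison, for the 34 tested peroxidase genes (dark bars) and for all 18125 tested features (pale bars). Red is the share that was higher and blue the share that was lower in Dex-treated plants or at the later time. The dark bars reach 20.6% at 4 h, 44.1% at 12 h and 67.6% at 72 h, and the pale ones 11.1%, 15.8% and 20.7%. The peroxidase loci were chosen with earlier results of these data known.

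The calls at 72 h depended most on how the spread was estimated. The spread between replicates was widest then, with a median SD over all features of 0.344 at 72 h against 0.208 at 4 h and 0.188 at 12 h. When the arrays of each time were fitted alone, 3 peroxidase genes passed at 4 h, 20 at 12 h and 8 at 72 h, beside 6.32%, 26.5% and 3.39% of all features. With the dyes taken from the sign of the limit values, 9, 14 and 24 genes passed in order of time, beside 12.9%, 18.2% and 24.4% of all features.

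By the times at which they passed, the 26 genes with a call fell into a few patterns. Of the 34 genes, 8 passed at no time, 11 at 1 time, 11 at 2 times and 4 at all 3 times. Among all features 69.1% passed at no time, 18.8% at 1, 7.42% at 2 and 4.66% at all 3. The choice of loci with earlier results known bears on these shares too. Of the 15 genes called at 12 h, 13 were called in the same direction at 72 h, which is 86.7% of the first list and 56.5% of the second. Over all features 54.1% of the calls at 12 h returned in the same direction at 72 h. Between 4 h and 12 h the shared genes numbered 5, or 71.4% of the 4 h list and 33.3% of the 12 h list, beside 60.2% and 42.2% over all features.

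**Figure D2:**
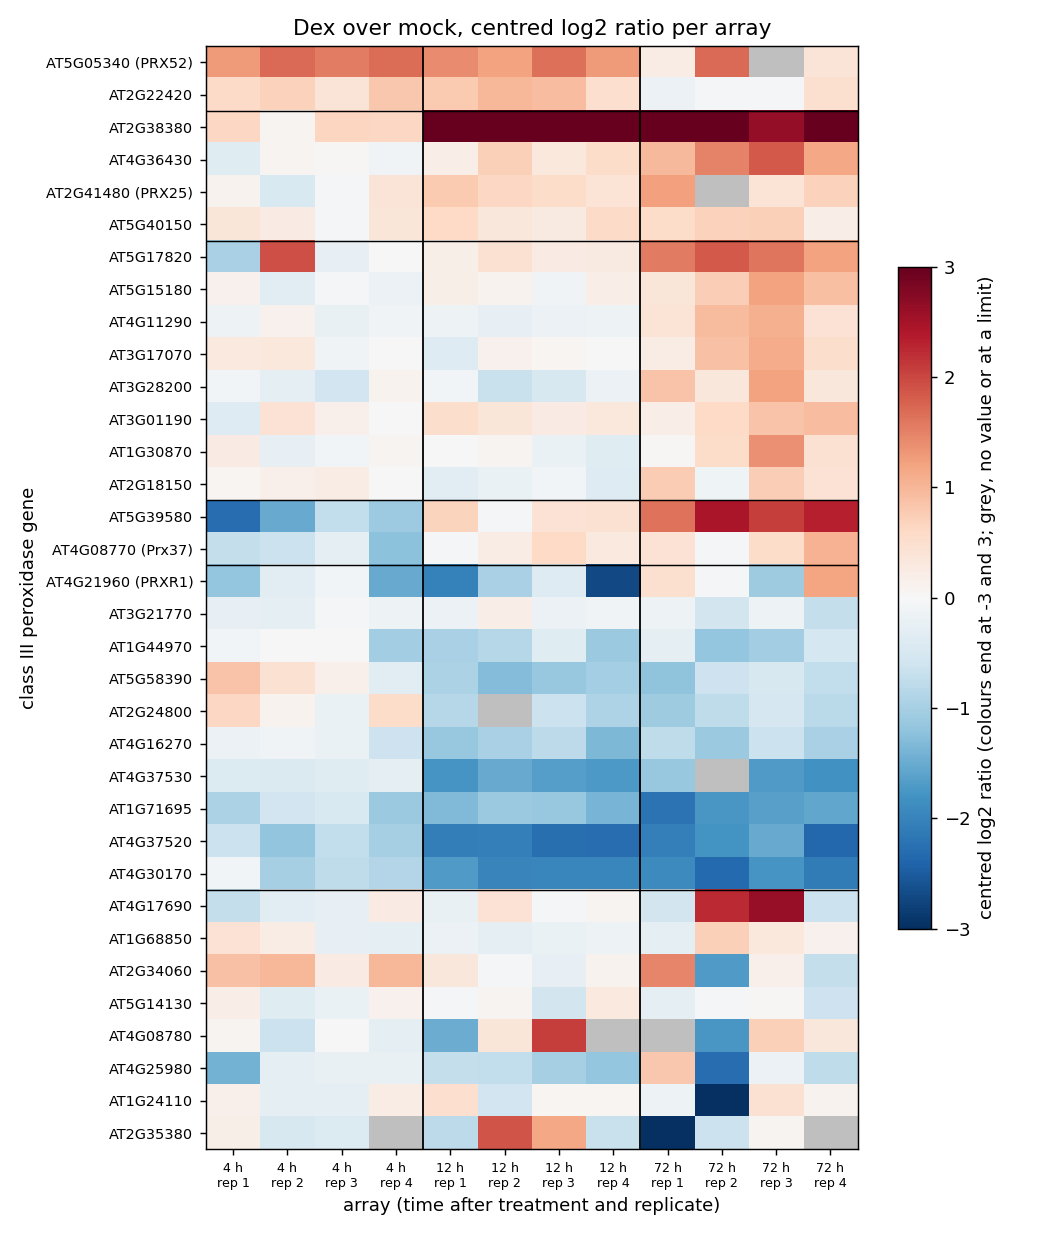
Centred log2 ratio (Dex over mock) of each tested peroxidase gene, in rows, on each of the 12 arrays, in columns ordered by time and replicate. Red is higher and blue lower in Dex-treated plants, the colours end at 3 and -3, and grey marks no value or a value at a limit. AT2G38380 turns dark red at 12 h and 72 h, AT5G39580 goes from blue at 4 h to red at 72 h, and the lowest block of called genes turns blue from 12 h on.

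The earliest rise was that of PRX52 (AT5G05340), a peroxidase known in Arabidopsis for its part in lignification of the stem's interfascicular fibres. Its log2 ratios were 1.29, 1.69, 1.52 and 1.68 on replicates 1 to 4 at 4 h, and 1.42, 1.22, 1.65 and 1.29 at 12 h. All 8 arrays were far above 0 and the values of both times overlapped. EXPA7, the only tested marker of the root hair list, was also higher then (0.65 and 0.83), and a link to PRX52 was not tested. The means of PRX52 were 1.55 ± 0.19 (SD, n = 4; 2.92-fold; limma adjusted p = 6e-04) at 4 h and 1.39 ± 0.19 (n = 4; 2.63-fold; adjusted p = 0.00081) at 12 h. At 72 h the values were 0.23, 1.71 and 0.38 on replicates 1, 2 and 4, while replicate 3 sat at the lower limit and was dropped. Replicate 2 alone was as high as at the earlier times. Its 72 h mean was 0.77 ± 0.81 (n = 3; limma adjusted p = 0.027), and without replicate 2 the call ended (adjusted p = 0.21), as it did with only the 72 h arrays, with array weights and under 2 other normalizations (adjusted p from 0.058 to 0.11). With the limit value kept the fitted ratio at 72 h turned to -1.02 (adjusted p = 0.64), and the calls at 4 h and 12 h ended as well (adjusted p = 0.65 and 0.63), in a fit whose spread is shared by all arrays.

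The other early rise was that of AT2G22420, and it did not last. Its ratios were 0.57, 0.69, 0.38 and 0.82 at 4 h and 0.78, 1.01, 0.92 and 0.50 at 12 h. At 72 h they were -0.18, -0.06, -0.05 and 0.48, so 3 of 4 arrays lay slightly below 0 and none reached the lowest value of 12 h. The mean was 0.61 ± 0.19 (n = 4; limma adjusted p = 0.006) at 4 h, 0.80 ± 0.22 (adjusted p = 0.00087) at 12 h and 0.05 ± 0.29 (adjusted p = 0.81) at 72 h. The fall from 12 h to 72 h was itself past the test, at -0.76 (SE 0.17; limma adjusted p = 0.035). That call was lost (adjusted p from 0.054 to 0.11) without any one of 8 arrays, namely 4 h replicate 2, all 4 replicates of 12 h and 72 h replicates 1 to 3. It was also lost with limit values kept (0.098), with only the arrays compared (0.078) and with the replicate number as a block (0.087). Fitted with its own 4 arrays, the rise at 4 h had an adjusted p of 0.063.

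AT2G38380 had the largest response among the 34 genes. Its 4 h ratios were 0.62, 0.08, 0.65 and 0.61, those at 12 h 2.99, 4.99, 3.79 and 3.64, and those at 72 h 4.02, 4.65, 2.63 and 4.28. Every later array lay far above every 4 h array, and 12 h and 72 h overlapped. From a mean of 0.49 ± 0.27 at 4 h (n = 4; limma adjusted p = 0.49) it reached 14.4-fold at 12 h (3.85 ± 0.83; adjusted p = 2e-05) and 14.9-fold at 72 h (3.90 ± 0.88; adjusted p = 2.2e-05). The response was larger by 3.36 at 12 h than at 4 h (SE 0.45; limma adjusted p = 0.0063) and by 3.40 at 72 h than at 4 h (adjusted p = 0.0016). All 4 of these calls held under each of the 25 alternatives.

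AT2G38390 lies next to AT2G38380 in the gene table and had too few values for a test. Its ratios were 0.14, 0.11 and 0.10 on 3 arrays at 4 h, 0.09 and -0.65 on 2 arrays at 12 h, and 0.34, 0.57, 1.96 and 0.65 at 72 h. At 12 h, when its neighbour was at 2.99 or above on every array, it was near or below 0. Whether probes of such neighbours also catch each other's RNA was not tested, as probe sequences were not used here.

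Another 3 genes were higher from 12 h on, by smaller amounts. AT4G36430 had ratios of -0.37, 0.08, 0.03 and -0.10 at 4 h, 0.21, 0.71, 0.32 and 0.54 at 12 h, and 0.98, 1.49, 1.83 and 1.16 at 72 h. The 3 sets of arrays did not overlap, each later time lying above the one before. Its 72 h mean of 1.37 ± 0.37 (n = 4; 2.58-fold; limma adjusted p = 6.9e-05) held under all 25 alternatives, whereas the 12 h mean of 0.45 ± 0.23 passed narrowly (adjusted p = 0.048). That call ended without any one of 9 arrays (4 h replicates 1 to 4, 12 h replicates 2, 3 and 4, 72 h replicates 2 and 4; adjusted p from 0.055 to 0.27). The gain from 12 h to 72 h was 0.92 (SE 0.19; adjusted p = 0.028), and it missed the threshold without 12 h replicate 1, 3 or 4 or 72 h replicate 4 (adjusted p from 0.064 to 0.092). It was 0.51 after quantile normalization (adjusted p = 0.15) and 0.63 with equal spreads of the arrays (0.071). The gain of 1.46 over 4 h (adjusted p = 0.0015) held in every alternative.

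PRX25 (AT2G41480), a peroxidase linked in Arabidopsis to the lignin of stems, had ratios of 0.78, 0.62, 0.56 and 0.41 at 12 h and of 1.24, 0.42 and 0.70 on 3 arrays at 72 h. Replicate 2 of 72 h sat at the lower limit and was dropped, and the values of both times overlapped. At 4 h the ratios of 0.12, -0.46, -0.03 and 0.38 lay on both sides of 0. The means were 0.59 ± 0.15 at 12 h (n = 4; limma adjusted p = 0.033) and 0.78 ± 0.41 at 72 h (n = 3; adjusted p = 0.016). With the limit value kept, the 72 h ratio turned to -1.05 (adjusted p = 0.61) and the 12 h call ended (adjusted p = 0.98). The 12 h call was also lost without any single 12 h array (adjusted p from 0.076 to 0.15) or without 72 h replicate 4 (0.05), and the 72 h call without 72 h replicate 1 (0.081) or 4 (0.054).

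AT5G40150 had ratios of 0.60, 0.35, 0.28 and 0.56 at 12 h and 0.55, 0.68, 0.72 and 0.19 at 72 h, after 0.36, 0.23, -0.05 and 0.37 at 4 h. The times overlapped, and only one 4 h array was below 0. Its means were 0.45 ± 0.16 at 12 h (n = 4; limma adjusted p = 0.015) and 0.54 ± 0.24 at 72 h (adjusted p = 0.0049), or 1.36-fold and 1.45-fold. The 12 h call ended without 12 h replicate 1 (adjusted p = 0.074), 2 (0.059) or 4 (0.077). With only the 72 h arrays fitted, the 72 h call ended (limma adjusted p = 0.13).

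**Figure D3:**
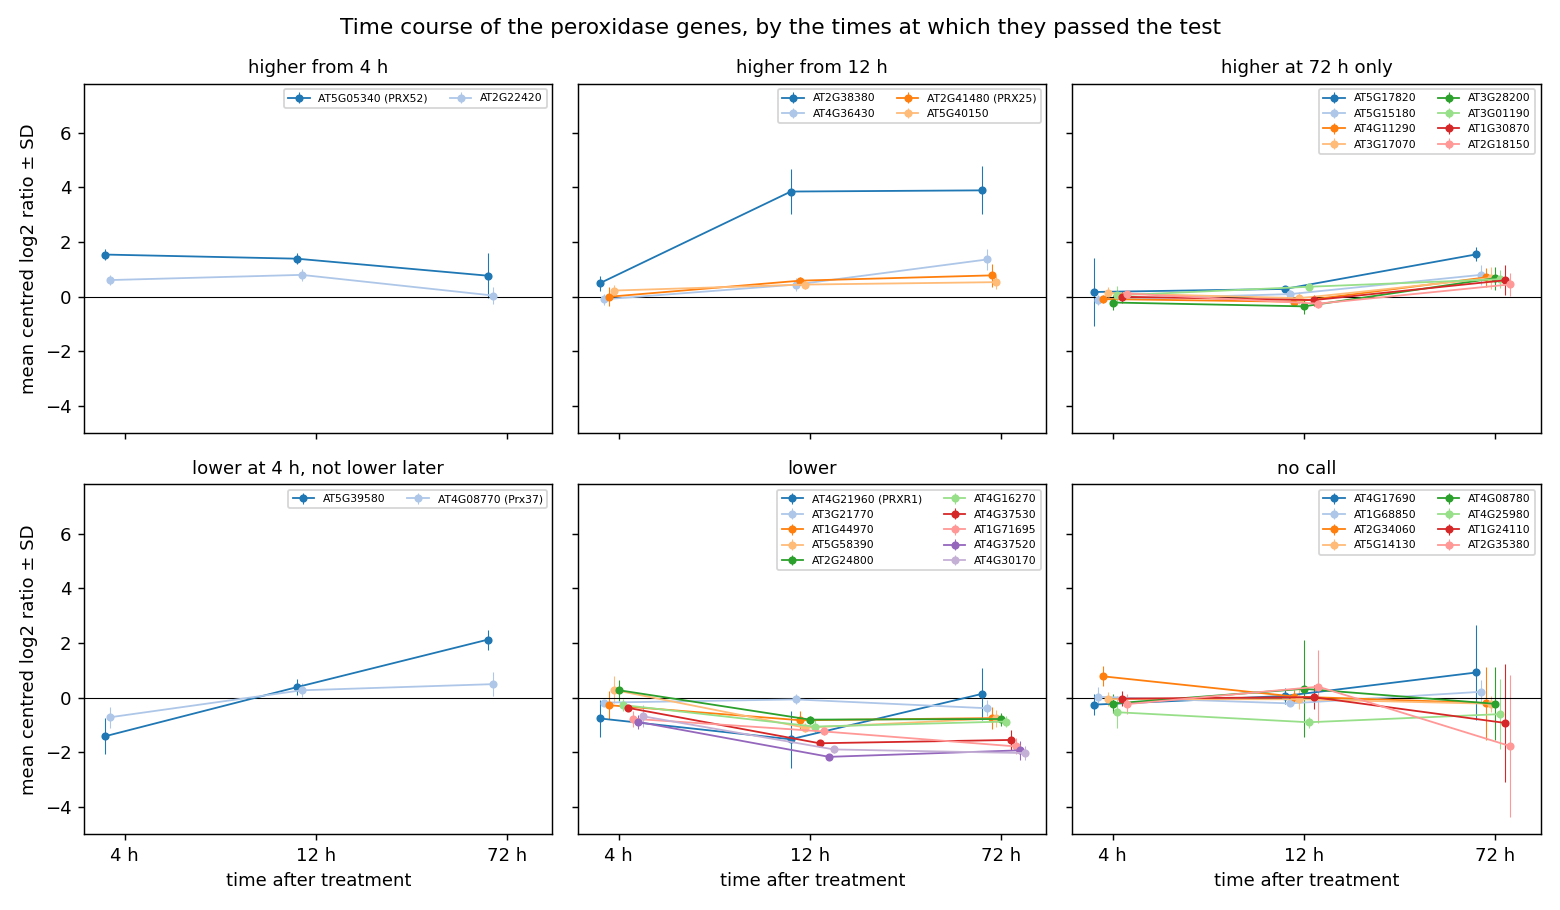
Mean centred log2 ratio (Dex over mock, vertical axis) with its SD over 3 or 4 arrays at 4, 12 and 72 h for the 34 tested peroxidase genes, 1 panel for each pattern of calls and small sideways shifts to separate the genes. The panel of genes higher from 12 h on holds AT2G38380, whose means were 3.85 and 3.90. In the panel of lower genes most lines drop between 4 h and 12 h and then run level, and the genes with no call have the longest error bars at 72 h.

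A further 8 genes were higher at 72 h and passed at no other time. Their mean ratios at 72 h ranged from 0.45 to 1.55 with a median of 0.68, after medians of 0.03 at 4 h and -0.09 at 12 h. AT5G17820 was the highest of them, with ratios of 1.57, 1.83, 1.60 and 1.21 at 72 h (1.55 ± 0.26, n = 4; 2.93-fold; limma adjusted p = 0.0095). At 12 h its 4 arrays were all just above 0, from 0.18 to 0.45, but at 4 h they spread over -0.97, 1.93, -0.24 and -0.01. With that spread the gain of 1.38 from 4 h to 72 h did not pass (SE 0.49; adjusted p = 0.12). Its 72 h call missed the threshold with array weights (adjusted p = 0.055) and with equal spreads of the arrays (0.056).

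Of these 8 genes, 3 also rose between times. AT5G15180 had 72 h ratios of 0.36, 0.74, 1.21 and 0.91 (0.80 ± 0.35, n = 4; limma adjusted p = 0.0011) and gained 0.90 over 4 h (SE 0.17; adjusted p = 0.0098). AT4G11290 stood at 0.41, 0.95, 1.06 and 0.43 (0.71 ± 0.34; adjusted p = 0.0012), gaining 0.79 over 4 h (adjusted p = 0.011) and 0.89 over 12 h (adjusted p = 0.014). AT3G28200 had 0.84, 0.34, 1.20 and 0.35 (0.68 ± 0.42; adjusted p = 0.013), with gains of 0.89 over 4 h (adjusted p = 0.036) and 1.03 over 12 h (adjusted p = 0.034). In all 3 genes every 72 h array was above every 12 h array.

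The 72 h call of AT3G28200 ended without 72 h replicate 1 (adjusted p = 0.058) or 3 (0.057), and its gains were lost without any one of 4 h replicate 2, the 12 h arrays or 72 h replicates 1, 3 and 4 (adjusted p from 0.051 to 0.11), the gain over 4 h also without 4 h replicate 3 (0.09) or 4 (0.058). The gain of AT5G15180 over 12 h was 0.71 (SE 0.17; limma adjusted p = 0.048) and was lost without any one of 10 arrays, all but replicate 1 of 4 h and of 72 h (adjusted p from 0.054 to 0.14). The gain of AT4G11290 over 12 h was lost without 12 h replicate 4 alone (adjusted p = 0.06).

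The remaining 4 genes of this pattern had smaller or more scattered rises at 72 h. AT3G17070 had ratios of 0.21, 0.87, 1.12 and 0.54 (0.69 ± 0.39, n = 4; limma adjusted p = 0.0084) and AT3G01190 of 0.19, 0.60, 0.87 and 0.92 (0.64 ± 0.33; adjusted p = 0.0092). AT1G30870 had 0.05, 0.56, 1.36 and 0.45 (0.60 ± 0.55; adjusted p = 0.03), and AT2G18150 had 0.77, -0.13, 0.75 and 0.43 (0.45 ± 0.42; adjusted p = 0.031). All arrays but 1 were above 0, and in the first 3 of these genes replicate 1 was the lowest array. The call of AT3G01190 ended without 72 h replicate 4 (adjusted p = 0.06), that of AT1G30870 without replicate 3 (0.11) or 4 (0.084), and that of AT2G18150 without replicate 1 (0.12), 3 (0.12) or 4 (0.072). Fitted on the 72 h arrays alone, 7 of the 8 genes missed the threshold (adjusted p from 0.067 to 0.32), AT5G17820 being the exception.

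AT5G39580 reversed. Its ratios were -2.29, -1.51, -0.75 and -1.09 at 4 h, 0.67, -0.03, 0.44 and 0.45 at 12 h, and 1.62, 2.44, 2.08 and 2.34 at 72 h. Each time lay wholly above the one before, with no overlap of arrays. It was 2.66-fold lower at 4 h (-1.41 ± 0.66, n = 4; limma adjusted p = 0.00044), at 0.38 ± 0.29 at 12 h (adjusted p = 0.21) and 4.36-fold higher at 72 h (2.12 ± 0.37; adjusted p = 2.4e-05). The response gained 1.79 from 4 h to 12 h (SE 0.25; limma adjusted p = 0.0073) and 1.74 from 12 h to 72 h (SE 0.25; adjusted p = 0.0054). The second step missed the threshold after quantile normalization (0.06) and with equal spreads of the arrays (0.087). It was the only tested peroxidase gene called in opposite directions at different times, and the 4 h and 72 h calls held under all 25 alternatives.

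Prx37 (AT4G08770), a peroxidase known in Arabidopsis from vascular bundles, began in the same way at a smaller size. Its ratios were -0.73, -0.64, -0.28 and -1.23 at 4 h, -0.03, 0.22, 0.59 and 0.29 at 12 h, and 0.43, -0.05, 0.56 and 1.04 at 72 h. All 4 h arrays were below every later array, while 12 h and 72 h overlapped. The mean was -0.72 ± 0.39 at 4 h (n = 4; limma adjusted p = 0.019), 0.27 ± 0.26 at 12 h (adjusted p = 0.39) and 0.49 ± 0.45 at 72 h (adjusted p = 0.065). From 4 h to 72 h the response gained 1.21 (SE 0.24; limma adjusted p = 0.012). The 4 h call ended without 4 h replicate 1 (adjusted p = 0.083), 2 (0.088) or 4 (0.12), and the 72 h ratio passed without 4 h replicate 3 (0.03) or 72 h replicate 2 (0.035). Its neighbour AT4G08780 scattered too widely to be called, with ratios of -1.48, 0.37 and 2.08 on 3 arrays at 12 h.

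**Figure D4:**
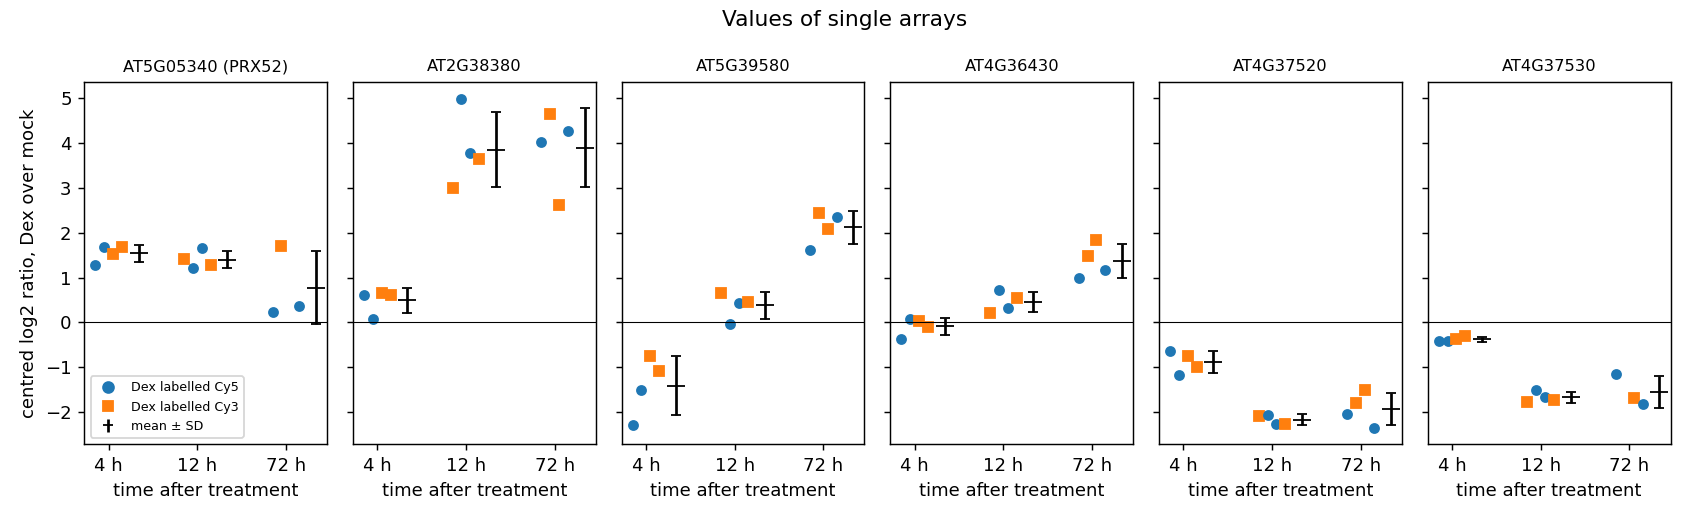
Centred log2 ratio (Dex over mock, vertical axis) of every array at 4, 12 and 72 h for 6 peroxidase genes, with circles where the labels give Dex RNA Cy5, squares where they give it Cy3, and a cross with bars for the mean ± SD. AT5G39580 climbs from -0.75 or lower at 4 h to 1.62 or higher at 72 h without overlap, and the neighbours AT4G37520 and AT4G37530 both drop between 4 h and 12 h. For PRX52 and AT4G37530 only 3 arrays are shown at 72 h.

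The falls were led by AT4G37520 and AT4G30170, with AT4G37530 and AT1G71695 close behind. AT4G37520 had ratios of -0.64, -1.18, -0.74 and -0.99 at 4 h, -2.08, -2.06, -2.26 and -2.27 at 12 h, and -2.05, -1.80, -1.51 and -2.35 at 72 h. Every later array was below every 4 h array, and 12 h and 72 h overlapped. It was 1.85-fold lower at 4 h (-0.89 ± 0.24, n = 4; limma adjusted p = 0.00094), 4.50-fold at 12 h (-2.17 ± 0.11; adjusted p = 2.5e-06) and 3.81-fold at 72 h (-1.93 ± 0.36; adjusted p = 5.8e-06). The response fell by 1.28 from 4 h to 12 h (SE 0.18; limma adjusted p = 0.0073), and the change from 12 h to 72 h was 0.24 (adjusted p = 0.5).

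AT4G37530, the next gene along, followed the same course. Its ratios were -0.42, -0.42, -0.37 and -0.30 at 4 h, -1.78, -1.51, -1.66 and -1.73 at 12 h, and -1.15, -1.69 and -1.81 on 3 arrays at 72 h. The 4 h arrays lay close together and above every later one. Means were -0.38 ± 0.06 at 4 h (n = 4; limma adjusted p = 0.058), -1.67 ± 0.12 at 12 h (adjusted p = 1e-05) and -1.55 ± 0.35 at 72 h (n = 3, replicate 2 at the lower limit; adjusted p = 3.9e-05). The response fell by 1.29 from 4 h to 12 h (SE 0.15; limma adjusted p = 0.0051). With limit values kept the 12 h call (adjusted p = 0.22) and the step from 4 h to 12 h (0.92) ended, and the 72 h ratio went to -2.80. Fitted on the 72 h arrays alone, the 72 h call of AT4G37530 missed the threshold (limma adjusted p = 0.072). Its 4 h ratio passed without a dye term (adjusted p = 0.046), with dyes set by the limit values (0.043), with array weights (0.0075) and after quantile normalization (0.015), and also without 72 h replicate 1 (0.018), 3 (0.047) or 4 (0.046).

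AT4G30170 had ratios of -0.08, -1.0, -0.76 and -0.89 at 4 h, -1.70, -1.98, -1.95 and -1.95 at 12 h, and -1.91, -2.33, -1.78 and -2.11 at 72 h. Replicate 1 of 4 h was near 0 and apart from the other 3, and no later array reached the 4 h values. It was 3.72-fold lower at 12 h (-1.90 ± 0.13, n = 4; limma adjusted p = 1.3e-05) and 4.09-fold lower at 72 h (-2.03 ± 0.24; adjusted p = 1e-05). The 4 h fall of 1.60-fold (-0.68 ± 0.41; limma adjusted p = 0.011) ended without 4 h replicate 2 (adjusted p = 0.082), 3 (0.051) or 4 (0.071). The step from 4 h to 12 h, at -1.22 (SE 0.21; adjusted p = 0.017), ended without 12 h replicate 2 (0.064), 3 (0.071) or 4 (0.069).

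AT1G71695 went down in smaller steps. Its ratios were -0.94, -0.58, -0.47 and -1.11 at 4 h, -1.32, -1.11, -1.13 and -1.40 at 12 h, and -2.21, -1.74, -1.63 and -1.56 at 72 h. The 72 h arrays were all below those of 12 h, and the lowest 4 h array was about level with the highest of 12 h. The fall was 1.71-fold at 4 h (-0.77 ± 0.30, n = 4; limma adjusted p = 0.0034), 2.36-fold at 12 h (-1.24 ± 0.14; adjusted p = 0.00012) and 3.45-fold at 72 h (-1.79 ± 0.29; adjusted p = 1.4e-05). Between 4 h and 72 h the response fell by 1.01 (SE 0.19; limma adjusted p = 0.0095), while neither step between neighbouring times passed (adjusted p = 0.32 and 0.15). That change missed the threshold with only the arrays compared (0.058), after quantile normalization (0.053) and with equal spreads of the arrays (0.13).

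Further falls began at 12 h in 4 genes. AT4G16270 had ratios of -1.14, -0.98, -0.78 and -1.34 at 12 h (-1.06 ± 0.24, n = 4; limma adjusted p = 8.8e-05) and -0.76, -1.12, -0.64 and -0.98 at 72 h (-0.88 ± 0.22; adjusted p = 0.00032). AT5G58390 had -0.94, -1.31, -1.14 and -1.02 at 12 h (-1.10 ± 0.16; adjusted p = 0.0015) and -1.22, -0.61, -0.48 and -0.74 at 72 h (-0.76 ± 0.32; adjusted p = 0.012). At 4 h AT4G16270 was slightly below 0 on all arrays, from -0.61 to -0.10, whereas 3 of 4 arrays of AT5G58390 were above 0. AT2G24800 had -0.87, -0.64 and -0.91 on 3 arrays at 12 h (-0.81 ± 0.15, n = 3, replicate 2 at the upper limit; limma adjusted p = 0.012) and -1.08, -0.76, -0.50 and -0.80 at 72 h (-0.78 ± 0.24; adjusted p = 0.0052). AT1G44970 had -0.98, -0.86, -0.36 and -1.12 at 12 h (-0.83 ± 0.33; adjusted p = 0.0035) and -0.28, -1.16, -1.03 and -0.54 at 72 h (-0.75 ± 0.41; adjusted p = 0.0056). All arrays with a value at these 2 times were below 0 in each of the 4 genes. The tapetum factor AMS, described with the other markers, was also lower at both times (-0.36 and -0.67). Of the 3 tested tapetum and pollen wall markers, AMS was the only 1 to pass at 12 h, where their median was -0.02, and 2 passed at 72 h.

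For 3 of the 4 the change from 4 h was also tested as past the threshold. AT5G58390 fell by 1.38 from 4 h to 12 h (SE 0.25; limma adjusted p = 0.022), AT2G24800 by 1.07 (SE 0.23; adjusted p = 0.045) and AT4G16270 by 0.79 (SE 0.16; adjusted p = 0.029). These steps were lost without any one of 4, 9 and 7 single arrays respectively, with adjusted p up to 0.079, 0.17 and 0.11. With the replicate number as a block the steps of AT5G58390 (limma adjusted p = 0.084) and AT2G24800 (0.17) also missed the threshold. The 72 h call of AT5G58390 ended without 72 h replicate 1 (adjusted p = 0.057), and the 12 h call of AT2G24800 without 12 h replicate 1 (0.063), 3 (0.051) or 4 (0.077). With the limit value kept, AT2G24800 turned to 1.05 at 12 h (adjusted p = 0.79). Fitted on the 72 h arrays alone, the 72 h calls of all 4 genes missed the threshold (limma adjusted p from 0.066 to 0.081).

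The last falls were each seen at 1 time. AT3G21770 was lower at 72 h only, with ratios of -0.16, -0.55, -0.14 and -0.71 (-0.39 ± 0.29, n = 4; limma adjusted p = 0.035). Its call ended without 4 h replicate 2, 12 h replicate 3 or 4, or 72 h replicate 2 or 4 (adjusted p from 0.052 to 0.17). The call also ended with only the 72 h arrays fitted (limma adjusted p = 0.31). PRXR1 (AT4G21960) was lower at 12 h only, with ratios of -2.02, -0.98, -0.40 and -2.70 (-1.52 ± 1.03, n = 4; limma adjusted p = 0.0076), a call that ended without 12 h replicate 4 (adjusted p = 0.057). Its 4 h ratios were -1.15, -0.32, -0.07 and -1.51 and those at 72 h 0.48, -0.05, -1.06 and 1.17. At 4 h and 12 h its lower pair of arrays, replicates 1 and 4, were those whose limit values were negative, and at 72 h its lower pair, replicates 2 and 3, were too. With the dyes taken from that sign, the 4 h ratio of -0.76 passed (limma adjusted p = 0.024, against 0.19 with the labelled dyes), as did the gain of 1.66 from 12 h to 72 h (adjusted p = 0.0083, against 0.072). Array weights (adjusted p = 0.019) or leaving out 4 h replicate 3 (0.021) also brought the 4 h ratio past the threshold.

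The differences between times, taken over the 34 genes, were most frequent between the first and the last time. From 4 h to 12 h, 8 genes differed, 2 upward and 6 downward, which is 23.5% against 2.43% of all features (1.04% upward, 1.4% downward). From 12 h to 72 h, 6 differed, 5 upward and 1 downward (17.6%, against 4.14% of all features, 2.74% upward and 1.4% downward). From 4 h to 72 h, 14 differed, 7 in each direction (41.2%, against 8.55% of all features, 4.98% upward and 3.57% downward). As the loci were chosen with earlier results of these data known, shares above those of all features may follow from that choice. AT2G38380 and AT5G39580 were the 2 genes whose response went up between 4 h and 12 h. The 7 that went up between 4 h and 72 h were these, AT4G36430, Prx37 (AT4G08770), AT5G15180, AT3G28200 and AT4G11290. The first count dropped to 4 without 12 h replicate 2, 3 or 4, beside 0.679%, 0.552% and 0.574% of all features. It dropped to 5 without 4 h replicate 2, beside 0.767%. The second dropped to 1 without 12 h replicate 4 (1.11% of all features) and to 2 without 12 h replicate 1 (2.31%) or 3 (1.59%). It dropped to 3 without 12 h replicate 2 (1.32%) or 72 h replicate 3 (4.01%) or 4 (1.68%).

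No call was made for the 8 genes AT1G24110, AT1G68850, AT2G34060, AT2G35380, AT4G08780, AT4G17690, AT4G25980 and AT5G14130. Some of them were steady and near 0, such as AT5G14130, whose mean ratios were -0.05, -0.06 and -0.23 with SDs of 0.27, 0.36 and 0.29. Others scattered, such as AT2G35380, at -4.74, -0.65 and 0.08 on 3 arrays at 72 h (it passed there at -2.51 with only the 72 h arrays fitted, limma adjusted p = 0.043), and AT4G17690, at -0.54, 2.25, 2.62 and -0.65. AT2G34060 was above 0 on all 4 arrays at 4 h, at 0.88, 1.00, 0.24 and 0.99, with a mean of 0.78 ± 0.36 (n = 4; limma adjusted p = 0.28). AT4G25980 was below 0 on all 4 arrays at 12 h, at -0.71, -0.75, -1.0 and -1.15 (-0.90 ± 0.21, n = 4; limma adjusted p = 0.17). Both have wide scatter at 72 h, which enters the shared estimate of their spread: AT2G34060 passed at 4 h with array weights (adjusted p = 0.026) and quantile normalization (0.039), and AT4G25980 passed at 12 h when fitted on those 4 arrays alone (0.0048), with array weights (0.0022), after quantile normalization (0.049) and without 72 h replicate 2 (0.039).

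A probe was present but too few values remained for a test in 20 genes. In 6 of them 2 values or fewer remained, among them AT4G26010, which sat at a limit on all 12 arrays, and AT1G05240, which had no value on any. AT5G51890 had 5 values, all above 0 and from 0.02 to 2.02, while PER36 (AT3G50990), known in Arabidopsis from the release of seed coat mucilage, had 4 values, all below 0 and from -5.68 to -1.44. The 4 values of PER36 came from arrays whose limit values were negative. The other 12 untested genes had 4 or more values, on both sides of 0. The 6 genes AT1G05260 (RCI3), AT1G14540 (PER4), AT5G06720 (PA2), AT5G19880, AT5G42180 (PER64) and AT5G64120 were not analysed here.

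Genes that act with the peroxidases were followed through 12 lists, of whose 149 loci only 26 had a named probe and 21 were tested. UPB1 (AT2G47270), a bHLH factor that represses peroxidase genes in the Arabidopsis root tip, had ratios of 0.20, 0.85, 2.19 and 0.95 at 72 h. All 4 arrays were above 0, with replicate 3 far above the rest, and the mean was 1.05 ± 0.83 (n = 4; limma adjusted p = 0.0044), after -0.42 ± 0.31 at 4 h (adjusted p = 0.28) and 0.10 ± 0.12 at 12 h (adjusted p = 0.85). KUA1 (AT5G47390), a MYB-like factor that represses peroxidase genes in expanding Arabidopsis leaves, was lower at 12 h, at -0.59 ± 0.17 (n = 4; limma adjusted p = 0.0088), and stood at -0.38 ± 0.19 at 72 h (adjusted p = 0.057). The KUA1 call ended without 12 h replicate 1 (adjusted p = 0.051) or 2 (0.056).

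Of the 27 monolignol synthesis loci, which supply the phenolics that wall peroxidases couple, 2 were tested. CCR2 (AT1G80820), a cinnamoyl-CoA reductase, was higher at all 3 times, at 0.95 ± 0.54, 0.82 ± 0.21 and 0.96 ± 0.27 (n = 4 each; limma adjusted p = 0.0048, 0.0085 and 0.0032), the 12 h call ending without 12 h replicate 3 (0.053). HCT (AT5G48930), a hydroxycinnamoyl transferase earlier in that pathway, was lower at 12 h (-0.50 ± 0.11; limma adjusted p = 0.037) and 72 h (-0.59 ± 0.47; adjusted p = 0.014). Its 12 h call ended without 4 h replicate 2 (0.056) or 4 (0.053) or without any single 12 h array (adjusted p from 0.069 to 0.15).

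On the side of the oxidants, 1 of the 2 tested loci of the NADPH oxidase list, AT1G19230, was lower at 72 h (-0.89 ± 0.17, n = 4; limma adjusted p = 0.0049). TAPX (AT1G77490), the thylakoid ascorbate peroxidase, which belongs to another peroxidase class, was lower at 12 h (-0.43 ± 0.29; limma adjusted p = 0.021) and 72 h (-0.51 ± 0.14; adjusted p = 0.0072). The 12 h call of TAPX ended without 12 h replicate 2 (0.074), 3 (0.12) or 4 (0.15). Among the extensins, wall proteins that peroxidases cross-link, 0 of the 8 tested loci passed by limma at any time, with medians of 0.08, -0.05 and 0.07 (0, 2 and 0 loci at an unadjusted p under 0.05). The tested loci of the Casparian strip list (GSO1, at 0.26, -0.20 and -0.23) and of the defence list (ZAT10, at 0.00, 0.81 and 0.78) did not pass at any time, and no laccase, superoxide dismutase or xylem and fibre locus was tested.

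Few markers of other cell types were tested. In the root hair list, of a cell type that inflorescences lack, the one tested marker, EXPA7 (AT1G12560), an expansin, was higher at all 3 times, at 0.65 ± 0.14, 0.83 ± 0.11 and 0.37 ± 0.27 (n = 4 each; limma adjusted p = 0.00073, 0.00011 and 0.013), the 72 h call ending without 72 h replicate 4 (0.081). In the list of tapetum and pollen wall markers 3 were tested, with medians of 0.09, -0.02 and -0.63 in order of time. AMS (AT2G16910), a tapetum factor, was lower at 12 h (-0.36 ± 0.06; limma adjusted p = 0.018) and 72 h (-0.67 ± 0.23; adjusted p = 0.00047). Its 12 h call was lost without 12 h replicate 1 (0.056), 2 (0.092) or 3 (0.12). EMS1 (AT5G07280), a receptor kinase needed for the tapetum, was lower at 72 h (-0.63 ± 0.35, n = 4; limma adjusted p = 0.0065), and SPL did not pass at any time. With limit values kept the EMS1 call ended (-0.61, limma adjusted p = 0.79). With only the 72 h arrays fitted, the 72 h calls of UPB1, CCR2, HCT, AT1G19230, TAPX, EXPA7, AMS and EMS1 all missed the threshold (adjusted p from 0.054 to 0.22). AMS was lower at the same times as most of the lower peroxidase genes, EMS1 at the last of them, and EXPA7 was higher at the times of PRX52. The part of such cells in the peroxidase results was not tested.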

How the data were processed

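The 12 arrays were two-colour oligonucleotide arrays. The deposited log2 ratios were made by the authors from amplified, dye-coupled RNA, per the labels' protocols. The sources used here name no background correction, normalization, centring or ratio direction. The log base was read from the limits of the values. The table had 26540 rows, of which 450 controls were left out and 0 columns lacked a sample. Of 26090 gene probes, 13960 had 1 name, 0 several and 12130 none, and 13912 named probes matched the TAIR10.1 gene table, from which only names and gene order were taken. Probes of one locus were averaged, and 11 peroxidase loci had 2 probes with identical values.

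A feature was tested with values on at least 3 of 4 arrays at each time (18125 features, 10654 of them named). No pseudocount was used. The model, fitted in R 4.3.3 with limma 3.58.1, had a mean per time and a labelled-dye term over all 12 arrays, and p-values were two-sided and adjusted over all features with Benjamini-Hochberg at 0.05. The step was run on simulated data with the same spread at every time, changes only at 12 h and the labelled dyes. Those data do not hold the wider spread at 72 h or dyes exchanged at 4 h, so the run cannot bear on them. A value ± SD is the mean over arrays, the adjusted p comes from the model, and folds are powers of 2 of the mean. Nothing beyond the labels' word says that the biological replicates came from separate plants, so p-values measure the spread between these arrays. Peroxidases that passed were given with the values of each array, as were named genes of the lists that passed with their means. Same-numbered arrays of 4 h and 12 h deviated together (r from 0.184 to 0.318 in all 4 pairs, beside -0.335 to 0.302 for different numbers), which those of 72 h did not. The sign of r followed the sign of the limit values, which same-numbered arrays shared between 4 h and 12 h and not with 72 h. Some arrays of different numbers but one sign had a higher r, such as 4 h replicate 4 with 12 h replicate 1 (0.302, against 0.244 with its own number). The model did not pair the arrays by number, and the replicate block was an alternative. Members and lists were chosen with earlier results of these data known. The 25 alternatives covered limit values, dyes, arrays fitted, weights, normalization, centring, filters, replicate number, thresholds and leaving out each array.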

Additional observations from a re-analysis of the deposited data

Results flagged for a closer look

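Single arrays stood apart from the other 3 of their time (gap over range above Dixon's critical value) in 6 of 94 sets of 4 values, where chance gives about 5%. AT1G24110 was at -4.13 on 72 h replicate 2, with the others from -0.14 to 0.46. AT4G25980 was at -1.41 on 4 h replicate 1 (others -0.28 to -0.22), and AT1G44970 at -1.05 on 4 h replicate 4 (others -0.09 to 0.01). AT2G34060 was at 0.24 on 4 h replicate 3 (others 0.88 to 1.00), AT2G38380 at 0.084 on 4 h replicate 2 (others 0.61 to 0.65) and AT4G30170 at -1.70 on 12 h replicate 1 (others -1.98 to -1.95). The 6 values fell on 6 different arrays.

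The response differed between times in 28 cases by the limma test of the difference itself. Upward from 4 h to 12 h were AT2G38380 (3.36; adjusted p = 0.0063) and AT5G39580 (1.79; 0.0073). Downward over that interval were AT5G58390 (-1.38; 0.022), AT4G37530 (-1.29; 0.0051), AT4G37520 (-1.28; 0.0073), AT4G30170 (-1.22; 0.017), AT2G24800 (-1.07; 0.045) and AT4G16270 (-0.79; 0.029). From 12 h to 72 h the response went up in AT5G39580 (1.74; 0.0054), AT3G28200 (1.03; 0.034), AT4G36430 (0.92; 0.028), AT4G11290 (0.89; 0.014) and AT5G15180 (0.71; 0.048), and down in AT2G22420 (-0.76; 0.035).

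From 4 h to 72 h it went up in AT5G39580 (3.53; 8.5e-05), AT2G38380 (3.40; 0.0016), AT4G36430 (1.46; 0.0015), AT4G08770 (1.21; 0.012), AT5G15180 (0.90; 0.0098), AT3G28200 (0.89; 0.036) and AT4G11290 (0.79; 0.011). Over the same interval it went down in AT4G30170 (-1.35; 0.0034), AT4G37530 (-1.19; 0.0032), AT2G24800 (-1.06; 0.015), AT5G58390 (-1.04; 0.028), AT4G37520 (-1.04; 0.0058), AT1G71695 (-1.01; 0.0095) and AT4G16270 (-0.60; 0.039). Second values in parentheses are adjusted p-values. The fall of AT4G16270 from 4 h to 72 h was lost without any one of 10 arrays, all but 4 h replicate 4 and 72 h replicate 3 (adjusted p from 0.054 to 0.11), and that of AT5G58390 without 4 h replicate 1, 2 or 3 or 72 h replicate 1 or 4 (0.055 to 0.08). Over the same interval AT4G37520 missed the threshold after quantile normalization (0.071) and with equal spreads of the arrays (0.17), as did AT4G30170 (0.081) and AT4G37530 (0.058) with equal spreads. With limit values kept AT4G37530 (0.25) and AT2G24800 (0.83) missed it, AT2G24800 also with only the arrays compared (0.062) and with the replicate block (0.07). The gain of AT3G28200 missed it in the same 3 settings (0.1, 0.13 and 0.07). AT5G58390 and AT4G16270 missed it in the first 2 of these (0.098 and 0.11; 0.077 and 0.14) and after quantile normalization (0.079 and 0.11), AT4G16270 with equal spreads too (0.16), AT5G58390 with equal spreads (0.051) and the block (0.081). Fitted with only the arrays compared, the gains of Prx37 (AT4G08770; 0.064), AT4G11290 (0.074) and AT5G15180 (0.066) missed it as well.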

How the results depend on the processing

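Of the 45 calls of peroxidase genes at a time, 12 held under all 25 alternatives (or those in which the gene could be fitted): AT1G71695, AT2G38380, AT4G30170 and AT4G37520 at 12 h and 72 h, AT5G39580 at 4 h and 72 h, AT4G16270 at 12 h and AT4G36430 at 72 h. Over the 73 calls, differences between times included, 1812 alternative values were computed, of which 1502 kept the call, 306 kept the direction without passing and 4 turned. The 4 came from keeping values at the limits: AT2G24800 at 1.05 at 12 h and 0.774 for 12 h minus 4 h (adjusted p = 1), PRX25 (AT2G41480) at -1.048 and PRX52 (AT5G05340) at -1.025 at 72 h. Each of these has 1 value at a limit, which that setting uses. That setting, with 51 peroxidase genes tested in place of 34, gave 9 calls at 12 h (15 otherwise), 3 for 12 h minus 4 h (8), 1 for 72 h minus 12 h (6) and 9 for 72 h minus 4 h (14), beside 9.48%, 0.626%, 1.07% and 3.96% of all features.

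Fitting only the arrays compared gave 3 at 4 h (7), 20 at 12 h (15), 8 at 72 h (23) and 6 for 72 h minus 4 h, beside 6.32%, 26.5%, 3.39% and 3.27% of all features. Array weights gave 13 each at 4 h, for 12 h minus 4 h and for 72 h minus 12 h, where the share of all features went from 11.1%, 2.43% and 4.14% to 25.5%, 17.1% and 15.5%. Quantile normalization gave 3 for 72 h minus 12 h, beside 3.18% of all features. Equal median absolute deviations gave 9 for 72 h minus 4 h, beside 8.54%. An adjusted p under 0.01 left 4, 1 and 8 differences (12 h minus 4 h, 72 h minus 12 h, 72 h minus 4 h). All features had shares of 0.447%, 0.921% and 3.32% there. Against a limit of 1.5-fold, 2, 7 and 7 genes passed in order of time, beside 1.74%, 2.97% and 3.28% of all features. For the differences in the same order 1, 0 and 3 passed, beside 0.105%, 0.248% and 1.05%. Causes were not tested beyond what each setting changes.

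Leaving out 1 array at a time gave 5 to 8 calls at 4 h, 10 to 15 at 12 h, 18 to 24 at 72 h, 4 to 8 for 12 h minus 4 h, 1 to 6 for 72 h minus 12 h and 11 to 15 for 72 h minus 4 h.

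Arrays of one replicate number deviated together between 4 h and 12 h, where they shared the sign of the limit values. They did not in the pairs with 72 h, where their signs were opposite. Replicate 3 of 4 h and replicate 3 of 12 h had their highest r with each other (0.318). No array was closest to its own number at each of the other times. With the replicate block 7, 13 and 20 genes passed in order of time, beside 9.18%, 13.2% and 17.0% of all features. The block left 6 for 12 h minus 4 h (0.866% of all features), 3 for 72 h minus 12 h (1.8%) and 11 for 72 h minus 4 h (5.57%). Ratios do not give signal over background.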
